A study of Homo sapiens with 4 samples.

Results

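The thrombospondins are secreted, multimeric glycoproteins of the extracellular matrix, and CD36 and CD47 are the cell surface proteins best known as their receptors. The group consisted of 7 genes taken by name, THBS1, THBS2, THBS3, THBS4, COMP, CD36 and CD47, out of 17687 distinct gene symbols on the array. Each of the 7 had 1 feature, so no choice between features had to be made. A feature is a set of short probes that the array reports as 1 value.

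The values came from HeyA8-MDR, a multidrug-resistant subline of a human ovarian carcinoma cell line, grown with 15% serum and 300 ng/ml paclitaxel in all arrays. Total RNA of 4 samples was measured on Affymetrix Human Clariom S arrays: 2 control samples and 2 samples labelled miR204. The design text describes a control microRNA inhibitor and an inhibitor of miR-204-5p, whereas the treatment note names the latter for all 4. The groups therefore rest on the sample titles and the design text. The titles of the 2 controls name only HeyA8-MDR cells and do not mention a control inhibitor. Dose and time of exposure to the inhibitor are not given in the sources used here. Nothing in the labels states that the 2 samples of a group came from separate cultures. Their spread may therefore be technical, and p-values measure only that spread. The level of miR-204-5p was not analysed here, so the effect of the inhibitor on its target was not checked.

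Thrombospondin-1 and thrombospondin-2 form trimers and carry type 1 repeats, the domains through which they bind CD36 and restrain the growth of blood vessels. Thrombospondin-3, thrombospondin-4 and COMP form pentamers and lack these repeats. CD47, which binds the C-terminal region of thrombospondin-1, also signals to phagocytes through SIRPA, and CD36 doubles as a scavenger receptor and fatty acid carrier. A microRNA pairs with messenger RNAs mainly through its seed, the stretch near its 5′ end, and lowers their level or translation. THBS1 has been reported as a target of miR-204-5p, which is why the comparison asks whether thrombospondin transcripts are higher once the microRNA is blocked.

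The inhibited microRNA and the closely related miR-211-5p are shown for the seed they share, with bases 2 to 8 in capitals.
hsa-miR-204-5p: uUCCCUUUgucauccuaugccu
hsa-miR-211-5p: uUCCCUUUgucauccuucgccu
The sequences are from RefSeq on GRCh38.p14. The first lies at chr9:70810031-70810052 on the minus strand and the second at chr15:31065095-31065116 on the minus strand. Both are 22 bases long and differ at 2 positions, 17 and 18, outside the seed. No other name among the 2545 mature entries of the table had this seed. A target site matched to the whole seed would read AAAGGGA. Transcript sequences of the 7 genes were not used here, so sites in them were not searched.

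THBS1 and THBS3 had higher values in both inhibitor arrays than in both controls, each by about the same factor, 1.49-fold and 1.47-fold. CD36 was slightly lower without overlap, and THBS2, THBS4, COMP and CD47 had overlapping groups. None of the 7 genes passed an adjusted p of 0.05 in limma, a moderated linear model fitted to all 21448 features with Benjamini-Hochberg adjustment over all of them. Among all features, 0.0513% passed as higher and 0% as lower, 11 features in total. At an unadjusted p under 0.05, 2 of the 7 were higher (THBS1 and THBS3) and 0 lower, against 5.11% of all features higher and 12.8% lower. Groups did not overlap for 2 of the 7 in the higher direction and 1 in the lower, against 16.5% and 33.8% of all features.

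**Figure D1:**
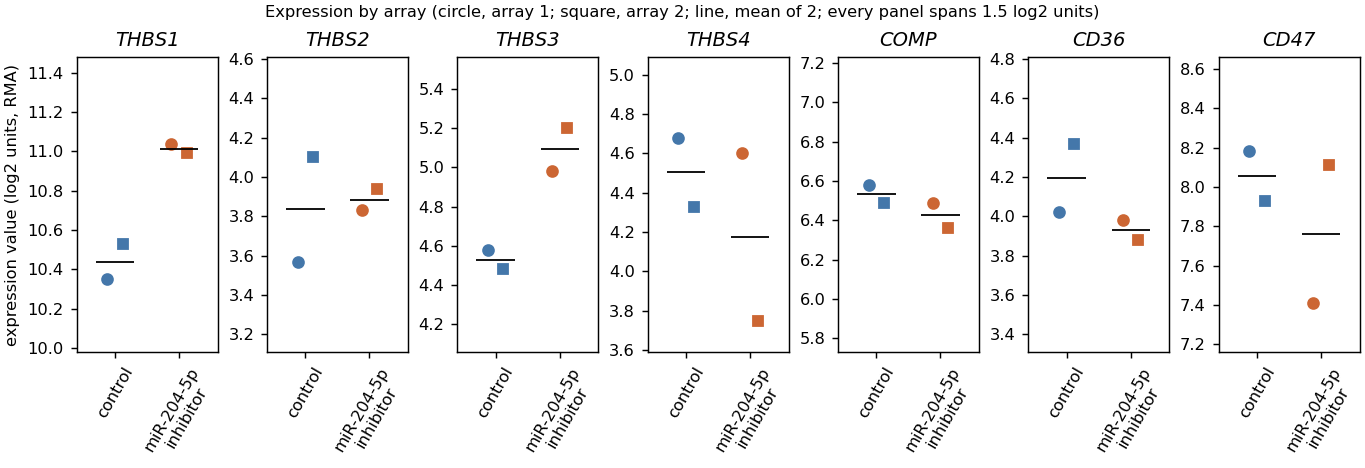
Expression value in log2 units of each gene in the 2 control arrays (blue) and the 2 inhibitor arrays (orange), with circles for array 1, squares for array 2 and a line at the mean of 2. Every panel spans 1.5 log2 units, and levels of different panels are not comparable. The orange points lie above the blue ones for THBS1 and THBS3 and below them for CD36.

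THBS1 encodes thrombospondin-1, an inhibitor of angiogenesis and an activator of latent TGF-beta. The control arrays read 10.35 and 10.53 log2 units, against 11.04 and 10.99 in the inhibitor arrays. Both inhibitor arrays were high and close together, and the gap between the groups, 0.46, was wider than the range within either group, 0.18 in the controls and 0.05 with the inhibitor. The means were 10.44 ± 0.127 and 11.02 ± 0.0354 (SD, n = 2 per group). They differed by 0.58 log2 units (SE 0.147, 95% interval 0.22 to 0.93), a fold of 1.49 with an interval from 1.17 to 1.9, and the adjusted p was 0.17. The gene is among the brightest on the array, at percentile 98.8 of the features by mean value. Of the 269 features with a mean at or above that of THBS1, 47 had a difference above 0 and 5 had a larger difference than THBS1. Over all levels, 451 features had a larger one.

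With a prior that follows the intensity, the standard error of THBS1 became 0.089 and the adjusted p 0.0038. Under that setting THBS1 was the only one of the 7 past the threshold, and 1.02% of all features passed as higher and 6.09% as lower. Of the 32 genes named from the lists around the thrombospondins 11 passed too. They had been picked by the size of their statistic in these same arrays, so their count cannot be set against those shares. THBS1 also passed among features above the median level (adjusted p = 0.036). Its adjusted p ranged from 4.1e-04 to 0.83 over all settings tried, and the difference ran from 0.48 to 0.79. Leaving out any 1 array gave differences of 0.48 to 0.66, in fits in which no feature passed.

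THBS3 encodes thrombospondin-3, a pentameric member expressed during skeletal growth. Its control values of 4.58 and 4.48 lay below the inhibitor values of 4.98 and 5.20. The gap between the groups was 0.40, against ranges of 0.10 and 0.22 within them. The log2 difference was 0.56 (SE 0.153, 95% interval 0.20 to 0.92), from means of 4.53 ± 0.0707 and 5.09 ± 0.156 (SD, n = 2 per group), and it did not pass (adjusted p = 0.18). It also missed the threshold with the intensity trend (SE 0.213, adjusted p = 0.14). Its feature sat at percentile 37.1 by mean value. The difference was 0.45 to 0.67 with 1 array left out, and under none of the 14 other settings that kept the feature did it pass.

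THBS2 encodes thrombospondin-2, the other trimeric, type 1 repeat thrombospondin. Its values were 3.57 and 4.10 in the control arrays, against 3.83 and 3.94 in the inhibitor arrays, so both inhibitor arrays lay between the controls. Its difference was 0.05 log2 units (SE 0.202, 95% interval -0.43 to 0.53, adjusted p = 0.92). The mean of 3.86 lay in the dimmest 25% of features, which reach 3.96, and detection was not analysed here. Its control range of 0.53 was wide: 2.64% of features had a control range at least as wide. Without control array 1 the difference was -0.21 and without inhibitor array 2 it was -0.01.

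THBS4 encodes thrombospondin-4, a pentamer of tendon, muscle and injured tissue. Its values were 4.68 and 4.33 in the control arrays, against 4.60 and 3.75 in the inhibitor arrays. Inhibitor array 2 stood alone as the low value, and the other inhibitor array lay between the controls. The groups differed by -0.33 log2 units (SE 0.285, 95% interval -1.01 to 0.35, adjusted p = 0.57), and it was 0.09 without inhibitor array 2. The range of 0.85 between the inhibitor arrays was matched or exceeded by 2.62% of features.

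COMP encodes cartilage oligomeric matrix protein, also named thrombospondin-5, which organises collagen in cartilage and tendon. Its values were 6.58 and 6.49 in the control arrays, against 6.49 and 6.36 in the inhibitor arrays. The groups touched at 6.49, and all 4 arrays lay close together. A log2 difference of -0.11 was measured (SE 0.145, 95% interval -0.46 to 0.24, adjusted p = 0.72), and it was 0.02 after cyclic loess scaling. The interval leaves room for a decrease or an increase of up to 0.46 and 0.24 log2 units.

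CD36 encodes the scavenger receptor that binds the type 1 repeats of thrombospondin-1 and thrombospondin-2. Its values were 4.02 and 4.37 in the control arrays, against 3.98 and 3.88 in the inhibitor arrays. Both inhibitor arrays were lower, but the groups were only 0.04 apart while the controls differed by 0.35. The difference was -0.26 log2 units (SE 0.17, 95% interval -0.67 to 0.14, adjusted p = 0.45), and it ran from -0.44 to -0.09 with 1 array left out. The mean of 4.06 lay just above the dimmest 25% of features, and whether the transcript was detected was not analysed here.

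CD47 encodes the integrin-associated protein that displays a signal against phagocytosis on many cells, tumour cells included. Its values were 8.18 and 7.93 in the control arrays, against 7.41 and 8.11 in the inhibitor arrays. Inhibitor array 1 was the low value, and inhibitor array 2 lay between the controls. The mean difference was -0.29 log2 units (SE 0.245, 95% interval -0.88 to 0.29, adjusted p = 0.56). Leaving out inhibitor array 1 gave 0.05 and leaving out inhibitor array 2 gave -0.65, so 1 array decided its direction. The range of 0.70 between the inhibitor arrays was matched or exceeded by 5.88% of features, and the median range over all features was 0.21 in that group and 0.13 in the controls.

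**Figure D2:**
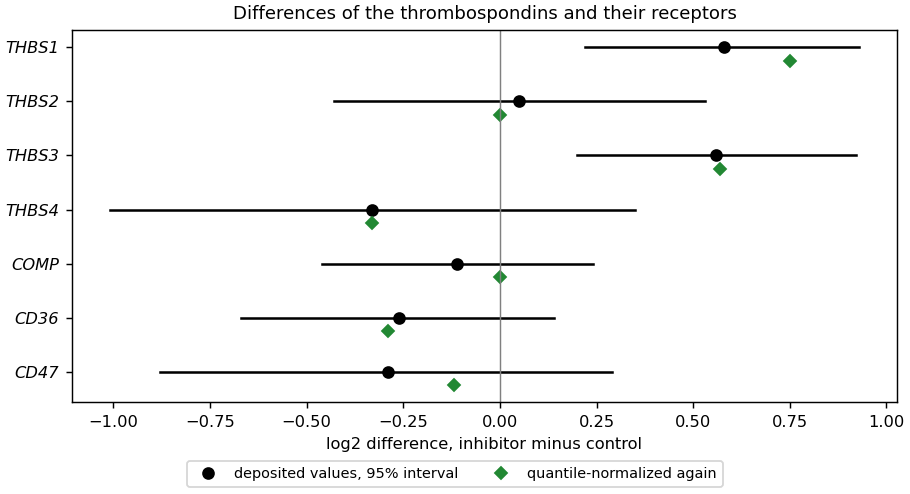
Log2 difference, inhibitor minus control, of each of the 7 genes with its 95% interval from the moderated test (black), and the difference after the arrays were quantile-normalized again (green). The intervals of THBS1 (0.22 to 0.93) and THBS3 (0.20 to 0.92) lie above 0, and the other 5 include 0.

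The members did not share a direction: 3 had a difference above 0 and 4 below 0, with a median of -0.11, against a median of -0.07 over all features, of which 40.5% were above 0 and 59.5% below. Equal array medians, quantile normalization and cyclic loess each brought the median of all features to 0. Under these scalings the THBS1 difference was 0.64, 0.75 and 0.79, larger than on the deposited values, and that of THBS3 was 0.62, 0.57 and 0.57. CD47 shrank to -0.23, -0.12 and -0.10, and COMP to -0.04, 0 and 0.02. THBS4 and CD36 stayed below 0, and THBS2 ran from 0 to 0.12. None of the 7 passed an adjusted p of 0.05 under these 3 scalings alone, with 0.19 to 0.21 for THBS1. Over all features the split at an unadjusted p under 0.05 moved from 1096 higher and 2735 lower to 1607 and 1943 with equal medians, 1409 and 1523 with quantile normalization, and 1494 and 1486 with cyclic loess. The split of features without overlap moved from 3535 higher and 7258 lower to 4876 and 5134 after quantile normalization. On the deposited values, lower values gathered among bright features. With limma on features above the median level alone, 463 were higher and 2920 lower at an unadjusted p under 0.05.

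**Figure D3:**
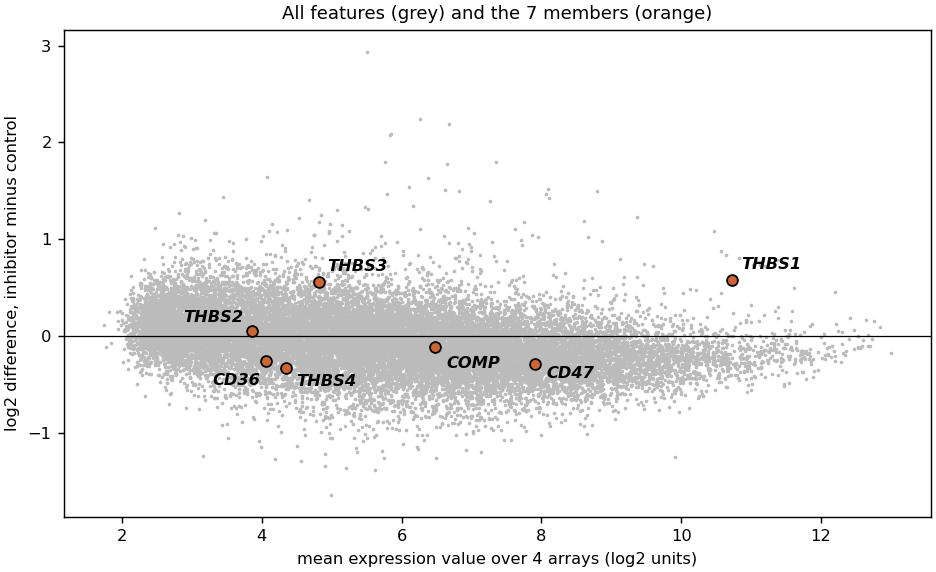
Log2 difference, inhibitor minus control, of all 21448 features (grey) against the mean expression value over 4 arrays, with the 7 genes in orange. THBS1 lies at the upper edge of the cloud among bright features, where 5 of 269 features at or above its level had a larger difference, and the others lie within the cloud.

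Levels in HeyA8-MDR were read against markers. The keratins KRT7, KRT8 and KRT18 had values from 10.30 to 11.45 and the Mullerian lineage factor PAX8 from 8.31 to 8.51, whereas EPCAM (2.93 to 3.87) and the cadherin CDH1 (2.72 to 3.50) were dim. Leukocytes, platelets and adipocytes are other sources of thrombospondin-1 or CD36. Of their markers, PTPRC (2.77 to 3.03), TUBB1 (2.70 to 3.08) and ADIPOQ (2.95 to 3.27) lay in the dimmest 25% of features, as did 5 of 10 leukocyte, 4 of 9 platelet and 4 of 6 adipocyte markers in all. Others lay above the median feature level of 5.64, such as the lysosomal CD68 (8.30 to 8.55), the leukocyte marker NKG7 (6.33 to 6.71) and the platelet marker PF4 (6.26 to 6.64). No measured marker of these 3 lists differed at an unadjusted p under 0.05. Of 10 fibroblast markers 8 were lower, 1 of them at an unadjusted p under 0.05, with summed log2 values of 48.1 and 47.7 in the control arrays, against 46.5 and 46.6 in the inhibitor arrays. Of 13 endothelial markers 7 were lower (5 with quantile-normalized values), 1 at an unadjusted p under 0.05, the endothelial cadherin CDH5 (difference -1.08, adjusted p = 0.10). The endothelial sums were 71.8 and 72.1 in the control arrays, against 70.8 and 71.2 in the inhibitor arrays. Of the 13 endothelial markers 4 lay in the dimmest 25%, among them the receptor gene KDR (2.58 to 2.85). Others were bright, such as TIE1 (8.49 to 8.88) and EGFL7 (8.42 to 8.65). Of 12 carcinoma markers 10 were lower, 4 at an unadjusted p under 0.05, against 8 lower with quantile-normalized values and 7 with cyclic loess. Of all features, 59.5% were below 0 and 12.8% were lower at an unadjusted p under 0.05. The part of these markers in the results above was not tested. No marker reads 0 on this scale. All arrays came from cultured HeyA8-MDR cells, so the marker values are levels in that line and not amounts of other cell types. Fewer cells with a transcript and less of it per cell cannot be told apart.

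Beyond CD36 and CD47, 18 further receptors of thrombospondins were measured, mostly integrins, lipoprotein receptors and syndecans. None passed the adjusted threshold, 14 of the 18 were lower, and at an unadjusted p under 0.05 there were 0 higher and 2 lower. Over all features, 59.5% were below 0, with 5.11% higher and 12.8% lower at that p. The list median was -0.20, but after quantile normalization 9 receptors were higher and 9 lower with a median of -0.05. SDC1, a heparan sulfate proteoglycan that takes part in thrombospondin adhesion, read 8.36 and 8.49 in the control arrays, against 7.57 and 7.65 in the inhibitor arrays. Both inhibitor arrays lay clearly below both controls, with a difference of -0.81 (SE 0.145, adjusted p = 0.13). SDC1 passed with the intensity trend (adjusted p = 0.0028), also after quantile normalization (0.013). CACNA2D1, the calcium channel subunit and gabapentin receptor that binds thrombospondins in synapse formation, differed by -0.67 (SE 0.143, adjusted p = 0.15), with a mean of 3.91 in the dimmest 25%. The integrin subunits ITGB5 (-0.40) and ITGB3 (-0.47) came next, both without overlap between groups, and ITGB5 differed by -0.26 after quantile normalization.

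CD47 acts with a small set of partners, and 14 of the 15 genes listed as partners or phagocytosis signals had a named feature. None passed the adjusted threshold, and 5 were higher and 9 lower, with 0 and 2 of them at an unadjusted p under 0.05. That compares with 5.11% of all features higher and 12.8% lower at that p. The list median was -0.08, which was 0 after quantile normalization. SIRPA, the inhibitory phagocyte receptor that recognises CD47, read 8.14 and 8.11 in the control arrays, against 7.46 and 7.71 in the inhibitor arrays. The inhibitor arrays were lower in both cases, with a difference of -0.54 (SE 0.154, adjusted p = 0.19). With the intensity trend SIRPA passed (adjusted p = 0.024) but not after quantile normalization with the trend (0.15), where the difference was -0.36. UBQLN2, a ubiquilin related to the CD47-binding PLIC-1, differed by -0.49 (SE 0.203) and the SIRPA-bound phosphatase PTPN11 by -0.29 (SE 0.142), against -0.32 and -0.07 after quantile normalization. B2M, the class I light chain that also restrains phagocytosis, had the largest statistic among the higher genes of the list, at 9.88 and 9.92 against 10.14 and 10.21, a difference of 0.27 (SE 0.14, adjusted p = 0.35). After quantile normalization the B2M difference was 0.49, and it passed there with the trend (adjusted p = 0.005).

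Relatives of CD36 and genes of fatty acid handling gave 19 measured genes, 8 higher and 11 lower, with a median of -0.10 and 0 past the adjusted threshold. At an unadjusted p under 0.05, 0 were higher and 3 lower, against 5.11% and 12.8% of all features. PPARG, the nuclear receptor that drives CD36 transcription in macrophages and fat, read 6.02 and 6.07 in the control arrays, against 5.21 and 5.47 in the inhibitor arrays. Neither inhibitor array reached the controls, and the difference was -0.71 (SE 0.156, adjusted p = 0.15). PPARG passed with the intensity trend (adjusted p = 0.039) but not after quantile normalization with the trend (0.099). ACSL1, an enzyme that activates fatty acids, differed by -0.53 (SE 0.149) and passed among features above the median (adjusted p = 0.044). ACSL1 did not pass with the intensity trend (adjusted p = 0.07) or after quantile normalization with the trend (0.21). The fatty acid binding protein FABP5 differed by -0.56 (SE 0.206), which passed with the trend (adjusted p = 0.048) and was -0.38 after quantile normalization (0.23 with the trend). The fatty acid transporter SLC27A6 differed by 0.40 (SE 0.17), with all its values, 2.41 to 3.06, in the dimmest 25%.

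Type 1 repeats occur in many other secreted and surface proteins, of which 30 were measured. The list held 11 genes above 0 and 19 below, with a median of -0.06 and 0 past the adjusted threshold. At an unadjusted p under 0.05, 2 were higher and 4 lower, against 5.11% and 12.8% of all features. CFP, the complement factor properdin, read 5.53 and 5.35 in the control arrays, against 6.47 and 5.85 in the inhibitor arrays, a difference of 0.72 (SE 0.223, adjusted p = 0.20). UNC5C, a netrin receptor, differed by 0.67 (SE 0.143, adjusted p = 0.15) but was dim, with values from 2.54 to 3.30. SBSPON, a somatomedin B and thrombospondin repeat protein, differed by -0.49 (SE 0.152) and the guidance protein SEMA5A by -0.53 (SE 0.183).

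Thrombospondin-1 releases TGF-beta from its latent complex, and 20 genes of latent TGF-beta, its activation, receptors and response were measured. None passed the adjusted threshold, 15 were below 0, and 4 were lower and 0 higher at an unadjusted p under 0.05. Of all features, 59.5% were below 0, and 12.8% were lower and 5.11% higher at that p. The list median of -0.26 moved to -0.08 with quantile normalization and to -0.06 with cyclic loess, with 14 genes below 0 in both. SMAD3, a signal transducer of the TGF-beta receptors, read 9.43 and 9.44 in the control arrays, against 8.59 and 8.74 in the inhibitor arrays. Both inhibitor arrays were far below the near-identical controls, and the difference was -0.77 (SE 0.144, adjusted p = 0.14). TGFBI, a matrix protein induced by TGF-beta, differed by -0.65 (SE 0.14, adjusted p = 0.15), the latent TGF-beta binding protein LTBP4 by -0.41 (SE 0.141) and the receptor TGFBR2 by -0.47 (SE 0.166). With the intensity trend 6.09% of all features passed as lower. Under it 4 genes of the list passed as lower, among them SMAD3 (adjusted p = 0.0015), TGFBI (0.003) and TGFBR2 (0.03). After quantile normalization with the trend the values were 0.0072, 0.016 and 0.18, and the TGFBR2 difference was -0.27.

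Matrix and protease partners gave 19 measured genes, 9 higher and 10 lower, with a median of -0.01 and 0 past the adjusted threshold. At an unadjusted p under 0.05, 2 were higher and 1 lower, against 5.11% and 12.8% of all features. FN1, the adhesive matrix protein fibronectin that binds thrombospondin-1, read 10.19 and 10.25 in the control arrays, against 10.55 and 10.64 in the inhibitor arrays. The groups did not overlap, and the difference was 0.38 (SE 0.142, adjusted p = 0.25) on the deposited values and 0.58 after quantile normalization. FN1 passed with the intensity trend on both (adjusted p = 0.022 and 8.8e-04). ADAMTS4, an aggrecanase, differed by 0.43 (SE 0.145), TNC, the matrix protein tenascin-C, by -0.51 (SE 0.163) and PLAU, the urokinase plasminogen activator, by -0.28 (SE 0.139). After quantile normalization TNC differed by -0.30 and PLAU by -0.08, and TNC passed with the trend on the deposited values only (adjusted p = 0.025, against 0.15). Of 8 genes of nitric oxide and cGMP signalling, which thrombospondin-1 restrains through CD47, 7 had means in the dimmest 25% of features. None passed, and 1 was higher and 1 lower at an unadjusted p under 0.05, against 5.11% and 12.8% of all features. The list had 4 genes above 0 and 4 below, against 40.5% and 59.5% of all features. The remaining gene, GUCY1B1, a subunit of soluble guanylate cyclase, read 5.64 and 6.38 in the control arrays, against 5.62 and 4.87 in the inhibitor arrays, a difference of -0.77 (SE 0.318, adjusted p = 0.28). NOS2, the inducible nitric oxide synthase, differed by 0.43 (SE 0.166), GUCY1A2 by -0.29 (SE 0.144) and the cGMP-dependent kinase PRKG1 by 0.21 (SE 0.156).

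Regulators reported for THBS1 transcription gave 8 measured genes, 3 higher and 5 lower. Of these, 1 passed as higher and 0 as lower, against 0.0513% and 0% of all features. At an unadjusted p under 0.05, 1 was higher and 2 lower, against 5.11% and 12.8% of all features. EGR1, an immediate early zinc finger factor that binds GC-rich promoter sites, rose from 5.74 and 5.41 to 7.61 and 7.92, a log2 difference of 2.19 (SE 0.185, adjusted p = 0.039). Both inhibitor arrays were far above both controls. Leaving out either control array gave 2.35 (adjusted p = 0.71) and 2.02 (0.83), and leaving out either inhibitor array gave 2.34 (0.24) and 2.03 (0.14). In these fits with 1 array left out, 0 of all features passed. With all 4 arrays the adjusted p of EGR1 was 0.058 after quantile normalization, 0.32 with the replicate number as a block and 0.34 without moderation, and it ranged from 2.4e-05 to 0.83 over the settings. The other regulators with the largest statistics had lower values: the Wilms tumour factor WT1 differed by -0.55 (SE 0.15), the AP-1 subunit JUN by -0.44 (SE 0.142) and SP1 by -0.32 (SE 0.144), and none of these passed. WT1 passed among features above the median (adjusted p = 0.04), but not with the intensity trend (0.051) or after quantile normalization with the trend (0.18). JUN passed with the intensity trend (adjusted p = 0.03, and 0.26 after quantile normalization with the trend), and after quantile normalization JUN differed by -0.24 and SP1 by -0.11. The list median of -0.14 turned to 0.07 with quantile normalization and to 0.06 with cyclic loess.

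Because EGR1 passed the threshold and THBS1 and THBS3 had the highest differences among the 7 genes, the 250 bases before a start of each are shown. Capitals mark matches on both strands to a set of short motifs. The GC box was searched as GGGCGG. The EGR site was searched as GCGGGGGCG or GCGTGGGCG, which can overlap a GC box. The CCAAT box was searched by the letters of its name. The TATA-like box was searched as TATAAA and also as TTTAAA. The AP-1 site was searched as TGANTCA. The cAMP response element was searched as TGACGTCA. The E-box was searched as CACGTG.
THBS1: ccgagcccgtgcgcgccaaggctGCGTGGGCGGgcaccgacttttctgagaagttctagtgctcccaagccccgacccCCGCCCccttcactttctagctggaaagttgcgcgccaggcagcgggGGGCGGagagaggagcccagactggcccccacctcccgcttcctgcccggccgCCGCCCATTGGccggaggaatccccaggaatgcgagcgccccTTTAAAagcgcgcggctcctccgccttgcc
THBS3: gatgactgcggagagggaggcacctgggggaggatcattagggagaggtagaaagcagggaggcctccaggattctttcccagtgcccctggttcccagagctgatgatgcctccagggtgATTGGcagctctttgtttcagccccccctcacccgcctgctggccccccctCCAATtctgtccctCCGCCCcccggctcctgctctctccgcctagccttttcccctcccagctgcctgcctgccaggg
The sequences are from RefSeq on GRCh38.p14, with THBS1 at chr15:39580829-39581078 on the plus strand and THBS3 at chr1:155207898-155208147 on the minus strand.

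The THBS1 window held 4 GC boxes, 1 EGR site that overlaps a GC box, 1 CCAAT box and 1 TATA-like box, the last from 30 to 25 bases before the start. The THBS3 window held 1 GC box and 2 CCAAT boxes and no EGR letters. RefSeq listed a second THBS3 start, whose window held 1 GC box. Among 35116 windows of the same length, 42.6% held a GC box, 5.37% an EGR site, 32% a CCAAT box, 19.7% a TATA-like box, 6.57% an AP-1 site, 1.65% a cAMP response element and 6.34% an E-box. All 7 genes had at least 1 window, 14 in total. The CD47 window held 6 GC boxes and no EGR letters, and 1 of the 2 THBS4 windows held an EGR site. The THBS2 window had a TATA-like box from 29 to 24 bases before the start. The 6 CD36 windows held no GC box, and 1 of them was the only window of the group with AP-1 letters. These matches describe the letters of the windows and were not tested as binding sites.

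Neighbouring genes on the chromosome were read from the RefSeq gene order, taking on each side the nearest protein-coding gene with a named feature. None of the 14 neighbours passed the adjusted threshold. The neighbours of THBS1, RASGRP1 and FSIP1, differed by 0.14 (SE 0.145) and -0.11 (SE 0.187). Beside THBS3, the mucin gene MUC1 differed by 0.03 (SE 0.173) and the mitochondrial import gene MTX1 by -0.39 (SE 0.146), the opposite sign to THBS3. MTX3, a relative of MTX1 that adjoins THBS4, differed by -0.61 (SE 0.197). Next to CD36, SEMA3C differed by 0.28 (SE 0.143) and GNAT3, with a dim mean of 2.75, by 0.51 (SE 0.22). Next to CD47, BBX differed by -0.34 (SE 0.179) and IFT57 by 0.10 (SE 0.147). The higher values of THBS1 and THBS3 stood beside neighbours with smaller or opposite differences, those of THBS1 being dim. The difference between neighbours was not itself tested.

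The genes whose pattern over the 4 arrays came closest to that of THBS1 were TMEM176A, SH3GL2, SPATA31A7, GOLGA8O and HSD17B7, with root mean square differences of 0.019 to 0.026 log2 units after each gene was centred on its own mean. HSD17B7, an enzyme of cholesterol synthesis, read 6.21 and 6.32 in the control arrays, against 6.88 and 6.81 in the inhibitor arrays. TMEM176A ran from 2.55 to 3.25 and thus lay in the dimmest 25% of features. For THBS3 the closest were ZDHHC1, GLDC, DUOX1, TMEM235 and OR1N2, at 0.012 to 0.042 log2 units. GLDC, the glycine decarboxylase, read 4.01 and 3.89 in the control arrays, against 4.43 and 4.63 in the inhibitor arrays. All 10 had 4 points each that come from the same arrays, so likeness of this kind is a description only.

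**Figure D4:**
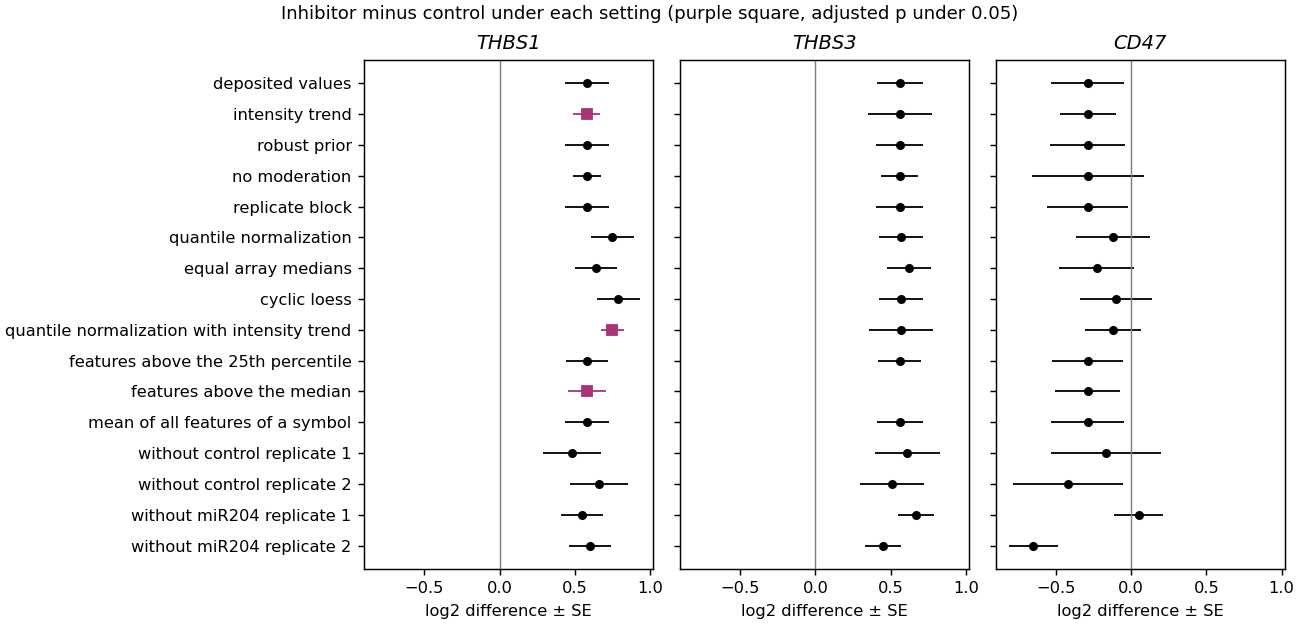
Log2 difference, inhibitor minus control, with its SE for THBS1, THBS3 and CD47 under each setting tried, with purple squares for an adjusted p under 0.05. THBS1 runs from 0.48 to 0.79 and passes in 3 settings, THBS3 lies between 0.45 and 0.67 without passing, and CD47 crosses 0 without inhibitor array 1.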

How the data were processed

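The deposited values were log2 expression values per feature that, per the submitters' processing notes, the authors made with RMA and Transcriptome Analysis Console 4.0. RMA corrects background, equalises array distributions and summarises probes. Its parameters and the genome build of the array are not given in the sources used here. Array medians were 5.65 and 5.68 (controls) and 5.59 and 5.61 (inhibitor), and correlations between arrays across features ran from 0.984 to 0.995. The array distributions were not equal. The SD over features was 2.2 and 2.21 in the controls, against 2.08 and 2.13 with the inhibitor. The highest values were 13.1 and 13.09, against 12.86 and 12.97. The part of this narrower spread in the lower values of bright genes was not tested. Of 21448 features, 17709 had 1 symbol in the platform annotation, 0 several and 3739 none.

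The comparison used limma 3.58.1 under R 4.3.3 (lmFit and eBayes, 2 residual and 4.78 prior degrees of freedom) on all features, without filter or replicate block. The smallest exact permutation p of 2 against 2 arrays is 0.333, so no single value was permuted. The procedure was checked on simulated data, drawn with equal array spreads and a variance that did not follow the intensity. That check therefore does not cover the unequal spreads of these arrays or a variance that changes with intensity. The 7 genes and the 8 pathway and 6 marker lists (194 of 207 genes measured) were chosen with earlier results of these data known. Named genes were the 7, up to 4 per pathway list by moderated statistic, and the 5 most alike to THBS1 and to THBS3. Neighbours, and markers cited with values, were named after their values were seen. Other settings were the prior, moderation, scaling, dim-feature filters, feature choice, the block and each array left out. The number of arrays limits the precision.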

Additional observations from a re-analysis of the deposited data

How the results depend on the processing

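The THBS1 difference, 0.58, was 0.64 to 0.79 under the 3 scalings. Priors, blocks and filters cannot move it, and leaving out 1 array cannot turn its sign, since the groups do not overlap. Its adjusted p passed with the intensity trend (difference 0.58, adjusted p = 0.0038), with quantile normalization and trend together (0.75, 4.1e-04) and over features above the median (0.58, 0.036). In these 3 settings 1 member was called higher. None of the other 6 members passed under any setting. The count of features called, 11 higher and 0 lower, became 219 and 1306 with the trend, 304 and 255 with quantile normalization and trend, 28 and 10 above the 25th percentile, 144 and 867 above the median, 2 and 2 without moderation, and 0 higher after quantile normalization, with the replicate block and without any 1 array. At an unadjusted p under 0.05 the counts became 662 higher without moderation, 463 higher above the median, 1693 higher with quantile normalization and trend, 1523 lower after quantile normalization and 1486 lower after cyclic loess. Features without overlap in the higher direction were 2221 above the 25th percentile and 1194 above the median, where fewer features enter. Leaving out 1 array at a time gave ranges of 341 to 2120 higher and 583 to 3758 lower at an unadjusted p under 0.05, and of 5177 to 6867 higher without overlap, a condition that 3 arrays meet more easily. Such fits had 1 residual and 2.33 to 2.79 prior degrees of freedom, with the lone array assumed to vary like the other group. The COMP difference was 0.02 after cyclic loess. Over single arrays left out, THBS2 ran from -0.21 to 0.31, THBS4 from -0.76 to 0.09 and CD47 from -0.65 to 0.05, and the sign turned without control array 1 or inhibitor array 2 for THBS2, inhibitor array 2 for THBS4 and inhibitor array 1 for CD47; the cause was not tested. Same-numbered arrays share only a number: their deviations correlated at 0.00579 over features (2 pairs), and with the replicate block THBS1 kept 0.58 (adjusted p = 0.32) and no member was called. Of 32 named pathway genes, 0 changed sign under another scaling and 12 moved by over 1.5 times. With the intensity trend 11 of the 32 passed, of which 5 also passed after quantile normalization with the trend. The 32 had been picked by the size of their statistic in these same arrays, which favours a kept sign and a pass.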
